A study of Mus musculus with 24 samples.

Results

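The distal end of the lower jaw was compared with the distal end of the upper jaw in mouse embryos labelled as Tgfbr2 knockouts, in which the gene is deleted by a neural crest Cre. The arrays were chosen by their titles: 3 of knockout distal mandible and 3 of knockout distal maxilla, 6 of the 24 arrays of the series, and every difference is mandible minus maxilla. Values of 3 arrays are listed as arrays 1, 2 and 3, with the mandible before the maxilla. Embryos of the C57B6 background were taken at embryonic day 12.5 from crosses of Wnt1cre;Tgfbr2fl/+ with Tgfbr2fl/fl mice. Mutants were recognised by a cleft palate and a calvarial defect, and their littermates were the controls, with no genotype stated in the labels read here. Each jaw was cut into a distal and a proximal end, which gave 8 groups of 3 arrays. Wnt1-Cre acts in the neural crest, so muscle precursors, the endothelium of vessels, blood cells and surface epithelium keep the receptor gene. The labels do not say whether each array stands for its own embryo or for a pool, so the p-values measure only the spread between arrays. That spread was estimated over all 24 arrays within their 8 groups, not from the 6 arrays alone. Values are log2 signal on a single-colour expression array, with array medians between 7.26 and 7.38, and the number of arrays limits the precision.

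The product of Tgfbr2 is the receptor kinase that binds TGF-beta ligands and passes their signal on through Smad2 and Smad3. In the face the receptor is needed in neural crest cells for the palate and the skull vault. The upper and lower jaw form from neighbouring crest populations, and the lower jaw is set apart by an endothelin signal that switches on Dlx5, Dlx6 and then Hand2. The distal maxilla lies next to the nasal region, where the olfactory placode makes sensory neurons.

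Several checks of the labels came first. Tgfbr2 itself read 12.68, 12.21 and 11.97 in the knockout mandible arrays and 12.26, 11.70 and 11.30 in the knockout maxilla arrays. The means were 12.29 ± 0.36 and 11.75 ± 0.48 (SD, n = 3), against 11.90 ± 0.30 and 11.54 ± 0.27 in the controls, so the signal was not lower in the knockouts. Where its probe sets lie relative to the floxed exon was not determined, and the gene's signal does not check the genotype here, so knockout is used as the labels give it. Its jaw difference of 0.54 ± 0.23 (SE) had an adjusted p of 0.146, which became 0.0206 with the array number as a block. The other probe set of Tgfbr2 differed by 0.59 (adjusted p = 0.0101) with no block. Xist read between 13.64 and 13.83 and the Y-linked gene Eif2s3y at most 3.77 in all 6 arrays, so the knockout jaws were alike in these sex-linked transcripts. The mean level of 4 sex-linked genes was 6.72 to 6.93 in the knockout distal mandible and 6.64 to 6.93 in the maxilla. In the control distal jaws it ranged more widely, from 6.81 to 7.70 and from 6.82 to 7.42. The part of sex in the shared spread and in the comparison of genotypes was not tested.

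Each of the 6 arrays fell on the side of its jaw label in Hand2, and 1 of them read against its end label in Alx1, Pax3 and Hoxa2 alike. Hand2, the marker of lower jaw mesenchyme, was above 11 in all 3 mandible arrays and below 9 in all 3 maxilla arrays. Alx1, a homeobox gene of frontonasal and distal jaw mesenchyme, read 12.34, 12.61 and 12.72 in the control distal mandible and 6.24, 6.35 and 7.11 in the control proximal mandible. The array labelled knockout distal mandible 1 read 6.26 for Alx1, while arrays 2 and 3 of its group read 10.79 and 11.91. The array labelled knockout proximal mandible 1 read 11.06, and the other proximal arrays read 6.16 and 6.68. Pax3 and Hoxa2 placed both arrays in the same way. Pax3 was 5.70 in the array labelled distal and 10.49 in the one labelled proximal, and Hoxa2 was 9.99 and 5.41. These 2 arrays therefore read on 3 genes like the opposite end of the jaw from their labels, and the labels were kept. In controls Hoxa2 read 4.27 to 5.98 in the distal and 8.37 to 10.51 in the proximal mandible. Knockout distal mandible 2 and 3 read 8.19 and 6.62, above the control distal range. The shift of Hoxa2 towards the proximal level was therefore not confined to array 1. In a correlation over all genes tested, the array labelled distal mandible 1 also lay nearer to the knockout proximal mandible (mean r 0.68) than to its own group (0.33). Distal mandible 2 did so by less (0.61 against 0.55), and distal mandible 3 did not (0.35 against 0.39). A further array stood apart in muscle genes: the list mean was 6.35 in knockout distal maxilla 3 against 8.69 and 7.81 in arrays 1 and 2. The control distal maxilla read 6.44 to 7.37, so array 3 lay nearer to the controls than arrays 1 and 2 did. Hand2 went the same way, at 4.87 in array 3, 8.28 and 7.68 in arrays 1 and 2, and 5.06 to 5.79 in the controls. A fit without array 3 therefore keeps the 2 maxilla arrays less like the controls in these genes. The calls are given with all arrays, and losses are stated by gene or by the count of a list for the fits without distal mandible 1, without distal maxilla 3, or without both.

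Across the genome the distal jaws of the knockouts differed in 1173 of 14879 genes tested, or 7.88 % (limma, Benjamini-Hochberg adjusted p under 0.05). Of these, 533 genes (3.58 %) were higher in the mandible and 640 (4.30 %) were lower, that is, higher in the maxilla. The median size of a called difference was 0.62 on the log2 scale, and the median over all genes tested was 0.0059. Differences of 2 or more on that scale were found for 63 called genes higher and 72 called genes lower in the mandible. With the array number as a block the calls rose to 1856 (891 higher, 5.99 %, and 965 lower, 6.49 %, in all 12.5 %), and 1154 of the 1173 were among them. Without distal mandible 1 there were 463 calls (3.11 %), 133 higher (0.894 %) and 330 lower (2.22 %), and without distal maxilla 3 there were 279 (1.88 %), 82 higher (0.551 %) and 197 lower (1.32 %). Without both there were 173 (1.16 %), 45 higher (0.302 %) and 128 lower (0.860 %), of which 153 were among the 1173. Leaving out the knockout mandible arrays numbered 1 of both ends gave 483 calls (3.25 %), 141 higher (0.948 %) and 342 lower (2.30 %). The errors and adjusted p-values given by gene rest on the spread shared with the control arrays. With the spread taken from the 2 groups compared there were 270 calls (86 higher and 184 lower). With that of the 12 knockout arrays there were 251 (114 and 137). In the 6 arrays, all 3 mandible values lay above all 3 maxilla values for 2299 genes (15.5 %) and below them for 2164 (14.5 %), so the absence of overlap alone is common here.

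**Figure D1:**
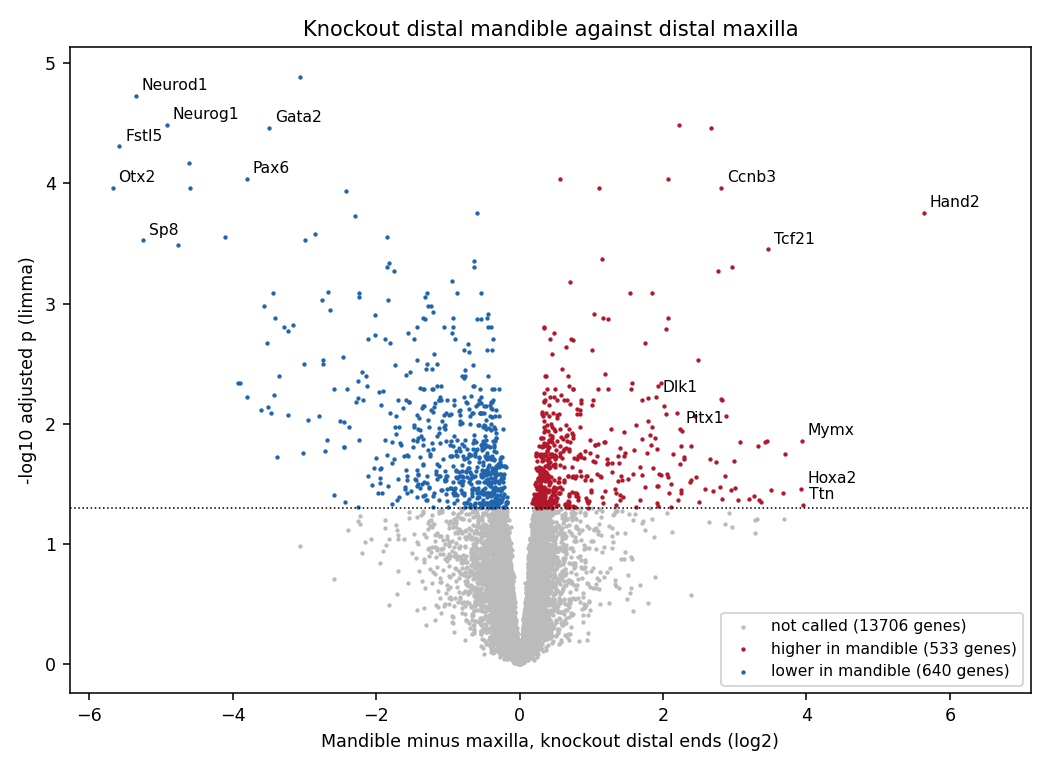
Each point is 1 of 14879 genes: the x axis is the knockout distal mandible minus maxilla difference (log2), the y axis is -log10 of the limma adjusted p, and the dotted line marks 0.05. The 533 genes called higher in the mandible are red with Hand2 farthest to the right, and the 640 called lower are blue with Otx2, Fstl5, Neurod1 and Sp8 farthest to the left.

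Hand2, a basic helix-loop-helix (bHLH) factor that acts downstream of endothelin and Dlx5/6, showed the largest difference in favour of the mandible. Its signal was 11.30, 12.98 and 13.44 in the mandible and 8.28, 7.68 and 4.87 in the maxilla, a difference of 5.63 ± 0.70 (adjusted p = 0.000175). The groups did not overlap, and the lowest maxilla value came from array 3, where the signal was below that array's 30th percentile, the floor of the measurement used here. Without both arrays that stand apart the difference was 5.23 (adjusted p = 0.00039). The other probe sets of the gene gave smaller differences of 2.32 and 2.07, so its size depends on the probe set.

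The promoter of Hand2 is shown as the reference sequence of the gene with the largest difference. It covers 250 bases before to 50 after the start, from RefSeq on GRCm38.p6, chr8:57320733-57321032, plus strand, with each CANNTG in capitals, the E-box bound by bHLH factors, which reads as CANNTG on either strand.
Hand2: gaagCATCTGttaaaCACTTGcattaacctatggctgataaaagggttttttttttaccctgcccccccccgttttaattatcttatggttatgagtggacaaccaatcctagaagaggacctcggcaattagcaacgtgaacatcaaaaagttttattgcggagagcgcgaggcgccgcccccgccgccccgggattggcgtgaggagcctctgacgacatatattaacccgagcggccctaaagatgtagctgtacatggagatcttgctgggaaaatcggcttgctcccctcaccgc
The window held 2 such boxes, and 72.3 % of the 32851 RefSeq mouse promoter windows of the same length held at least 1.

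Pitx1, a homeobox gene of the lower jaw and hindlimb, read 11.81, 12.82 and 12.34 in the mandible and 10.16, 9.97 and 10.14 in the maxilla (2.23 ± 0.49, adjusted p = 0.011). Its groups were far apart. Nkx2-3, a homeobox gene of pharyngeal tissue, read 7.53, 8.07 and 8.67 against 6.94, 7.19 and 6.90 (1.08 ± 0.26, adjusted p = 0.0186), also without overlap. Of the 14 measured genes of lower jaw identity, 3 were called higher and 0 lower, against 3.58 % and 4.30 % of all genes tested. All 14 had a positive difference, and the median was 0.90. Without both arrays that stand apart 3 were called. Pitx1 lost its call in that setting and Nkx2-3 lost its call without distal maxilla 3. Cited1, a transcriptional co-activator, overlapped between the jaws at 8.54, 10.57 and 11.62 against 8.62, 8.96 and 8.56 (adjusted p = 0.056), with the lowest mandible value in array 1. Without that array its difference went from 1.53 to 2.38 (adjusted p = 0.000442).

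The Dlx homeobox genes, which give the pharyngeal arches their dorsoventral identity, all leaned to the mandible but none of the 8 passed the test. Their median difference was 1.12. Only 1 of the 8 had all mandible arrays above all maxilla arrays, as did 15.5 % of all genes tested. Dlx6 read 10.94, 10.60 and 10.26 in the mandible and 8.59, 8.58 and 10.32 in the maxilla (1.43 ± 0.44, adjusted p = 0.0535). The maxilla arrays disagreed, with array 3 as high as the lowest mandible array, and without it the difference was 2.01 (adjusted p = 0.0157). Dlx5 read 12.39, 12.13 and 11.61 against 11.07, 11.07 and 11.55 (adjusted p = 0.128). Dlx1as, the antisense transcript at Dlx1, had the largest difference of the family at 2.96 ± 0.99 (adjusted p = 0.0722, with the block 0.0478). Edn1, the endothelin ligand upstream of these genes, differed by 0.22 ± 0.18 (adjusted p = 0.433).

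Of 15 upper jaw and frontonasal genes, 3 were called lower in the mandible and 0 higher, against 4.30 % and 3.58 % of all genes, with a median of -0.54. Tfap2b, a neural crest transcription factor, read 9.21, 10.22 and 9.84 in the mandible and 11.74, 11.48 and 12.43 in the maxilla (-2.13 ± 0.40, adjusted p = 0.00486). Six2, a homeobox gene of maxillary and frontonasal mesenchyme, read 11.48, 11.78 and 10.77 against 12.65, 12.57 and 12.78 (-1.33 ± 0.21, adjusted p = 0.00135). Neither overlapped. Tfap2b lost its call without both arrays that stand apart, and Six2 was still called without both arrays that stand apart (-1.34, adjusted p = 0.0238). Pax7, a paired box gene of nasal crest and of muscle precursors, read 9.55, 9.17 and 8.32 against 10.55, 10.69 and 11.16 (-1.79 ± 0.53, adjusted p = 0.0465). That call was lost with the block (adjusted p = 0.0502) and without either array. Foxc1, a forkhead gene of cranial mesenchyme, was also lower in the mandible (-1.60 ± 0.44, adjusted p = 0.0348), a call lost without distal maxilla 3 and without both. Alx1 read 6.26, 10.79 and 11.91 against 12.58, 12.76 and 12.79, and its difference of -3.06 ± 1.15 (adjusted p = 0.104) shrank to -1.36 without distal mandible 1. Pax3 behaved in the same way, at -1.82 with all arrays and -0.10 without that array. Aldh1a3, an enzyme that makes retinoic acid, read 8.66, 8.17 and 7.62 against 10.02, 10.78 and 10.44 (-2.26 ± 0.74, adjusted p = 0.0651) and was not called.

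Of the 12 largest differences in favour of the maxilla, 6 were genes of the list for olfactory and nasal epithelium, among them Otx2, Lhx2 and Pax6, which also stand in the eye and forebrain list, and 4 (Fstl5, Olig1, Uncx and Six3os1) stand in no list. Of 14 genes of olfactory and nasal epithelium, 8 were called lower in the mandible and 0 higher, against 4.30 % and 3.58 % of all genes, with a median of -1.20. Without both arrays that stand apart 6 were still called lower, against 0.860 % of all genes. Otx2, a homeobox gene of the anterior head, read 4.51, 4.46 and 4.28 in the mandible and 9.59, 9.36 and 11.33 in the maxilla (adjusted p = 0.000108). The mandible values lay below 5.85, the lowest of the 30th percentiles of the 6 arrays. With each dim array raised to its own 30th percentile, Otx2 was at least 18.4-fold lower in the mandible.

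Sp8, a zinc finger factor of the nasal pit, read 4.15, 4.58 and 4.35 against 8.98, 9.23 and 10.61, a signal at least 13.1-fold lower in the mandible (adjusted p = 0.000299). Fezf1, needed for olfactory axons to reach the brain, read 5.08, 4.80 and 5.32 against 9.36, 9.34 and 10.82, at least 15.4-fold lower (adjusted p = 0.000328). Lhx2, a LIM homeobox gene of olfactory neurons and the eye, stayed near or above the floor in the mandible at 6.77, 6.40 and 5.84 against 10.81, 10.13 and 11.87 (-4.60 ± 0.55, adjusted p = 0.000108). For none of these did an array of 1 jaw reach the range of the other. Pax6, a master gene of eye and nasal placode, read 5.55, 5.81 and 5.51 against 9.69, 8.86 and 9.75, at least 11.6-fold lower (adjusted p = 9.16e-05). Other probe sets of Pax6 differed by -1.92 and -0.068, the latter not called (adjusted p = 0.628). Of the eye and forebrain list, 5 of 14 genes were called lower, Otx2, Lhx2 and Pax6 and also Six3 (-2.24 ± 0.33) and Otx1 (-2.02 ± 0.31). Over all genes 4.30 % were called lower. The pigment genes Pmel (-1.56, adjusted p = 0.211) and Dct (-0.95, adjusted p = 0.444) were not called.

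Neuronal factors followed the same split. Neurod1, a bHLH factor of differentiating sensory neurons, read 6.05, 4.93 and 5.89 in the mandible and 10.53, 10.40 and 11.996 in the maxilla, at least 32.6-fold lower (adjusted p = 1.87e-05). Neurog1, a bHLH factor that commits placode cells to neurons, read 4.22, 4.19 and 4.82 against 8.66, 8.87 and 10.48, at least 10.9-fold lower (adjusted p = 3.28e-05). Both stayed called without both arrays that stand apart, at adjusted p = 0.00039 and 0.00116. Another probe set of Neurog1 differed by -0.0028 and was not called (adjusted p = 0.99), while another of Neurod1 differed by -5.97. Nhlh2, a bHLH gene of young neurons, read 5.79, 5.997 and 6.57 against 10.43, 9.88 and 11.86 (-4.61 ± 0.51, adjusted p = 6.72e-05), and its relative Nhlh1 was lower as well (at least 6.62-fold, adjusted p = 0.000264). Neurog2 was low in both jaws and not called, at 4.88, 5.22 and 4.84 against 6.87, 5.73 and 5.66 (adjusted p = 0.378). The receptors Ntrk2 and Ntrk3, which bind neurotrophins, were not called (0.67 and 1.03). Of the sensory neuron factors, 5 of 14 were called lower and 0 higher, against 4.30 % and 3.58 % of all genes, with a median of -0.43.

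The promoters of 2 of these bHLH genes are shown for comparison with the muscle genes further on, from RefSeq on GRCm38.p6, each 5′ to 3′ on the strand of its gene with CANNTG in capitals. Neurod1 lies at chr2:79456587-79456886 on the minus strand and Nhlh2 at chr3:102009895-102010194 on the plus strand.
Neurod1: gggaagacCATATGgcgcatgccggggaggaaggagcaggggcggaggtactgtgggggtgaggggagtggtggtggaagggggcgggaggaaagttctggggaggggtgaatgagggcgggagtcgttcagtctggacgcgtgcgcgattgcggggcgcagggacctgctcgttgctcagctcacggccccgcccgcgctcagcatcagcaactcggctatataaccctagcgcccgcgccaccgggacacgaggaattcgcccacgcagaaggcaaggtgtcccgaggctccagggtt
Nhlh2: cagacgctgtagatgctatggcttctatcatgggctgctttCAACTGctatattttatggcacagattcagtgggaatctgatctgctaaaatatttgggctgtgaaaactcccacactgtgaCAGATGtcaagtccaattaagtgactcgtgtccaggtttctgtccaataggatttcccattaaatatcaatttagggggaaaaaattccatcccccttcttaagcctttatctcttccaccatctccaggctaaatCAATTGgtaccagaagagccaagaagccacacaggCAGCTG
The Neurod1 window held 1 box and the Nhlh2 window 4. Of these 4, 1 was of the kind counted for the muscle genes further on, and 1 was CAGATG. This motif, searched on both strands, stood in 17.2 % of all promoter windows.

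Of the general neuronal genes, 6 of 20 were called lower in the mandible and 0 higher, against 4.30 % and 3.58 % of all genes, with a median of -1.07. Stmn3, a tubulin-binding protein of neurons, read 8.03, 6.97 and 7.19 against 10.85, 10.30 and 11.75 (-3.57 ± 0.54, adjusted p = 0.00106). Ina, a neurofilament protein, read 7.05, 6.49 and 6.91 against 9.97, 9.55 and 11.22 (-3.43 ± 0.51, adjusted p = 0.000821). Array 3 of the maxilla was the highest for both. The RNA-binding proteins Elavl3 and Elavl4 differed by -2.67 and -2.76, Stmn2 by -1.90 and Tubb3 by -1.73, all called. Tubb3 lost its call without either array that stands apart, and Stmn2 without both. Without both arrays that stand apart 4 of the list were called lower, against 0.860 % of all genes. Prph, a filament protein of peripheral neurons, differed by -1.87 (adjusted p = 0.0734), and another of its probe sets differed in sign at 0.34 (adjusted p = 0.0215). In these bulk samples fewer cells of a type and less RNA per cell cannot be told apart.

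The surface epithelium list leaned the same way. Its mean level was 9.34 to 9.72 in the mandible and 10.20 to 10.39 in the maxilla, and 2 of 23 genes were called lower, against 4.30 % of all genes. These were Cldn3, a tight junction protein (-2.12 ± 0.56, adjusted p = 0.0272), and Krt18, a keratin of simple epithelium (-1.94 ± 0.50, adjusted p = 0.0239). Its partner keratin Krt8 read 9.64, 9.71 and 9.74 against 11.26, 11.24 and 12.22 and missed the threshold (adjusted p = 0.0639, with the block 0.0144). The calls of Cldn3 and Krt18 were lost without distal mandible 1 and without distal maxilla 3. The part of epithelium in the placodal difference was not tested.

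**Figure D2:**
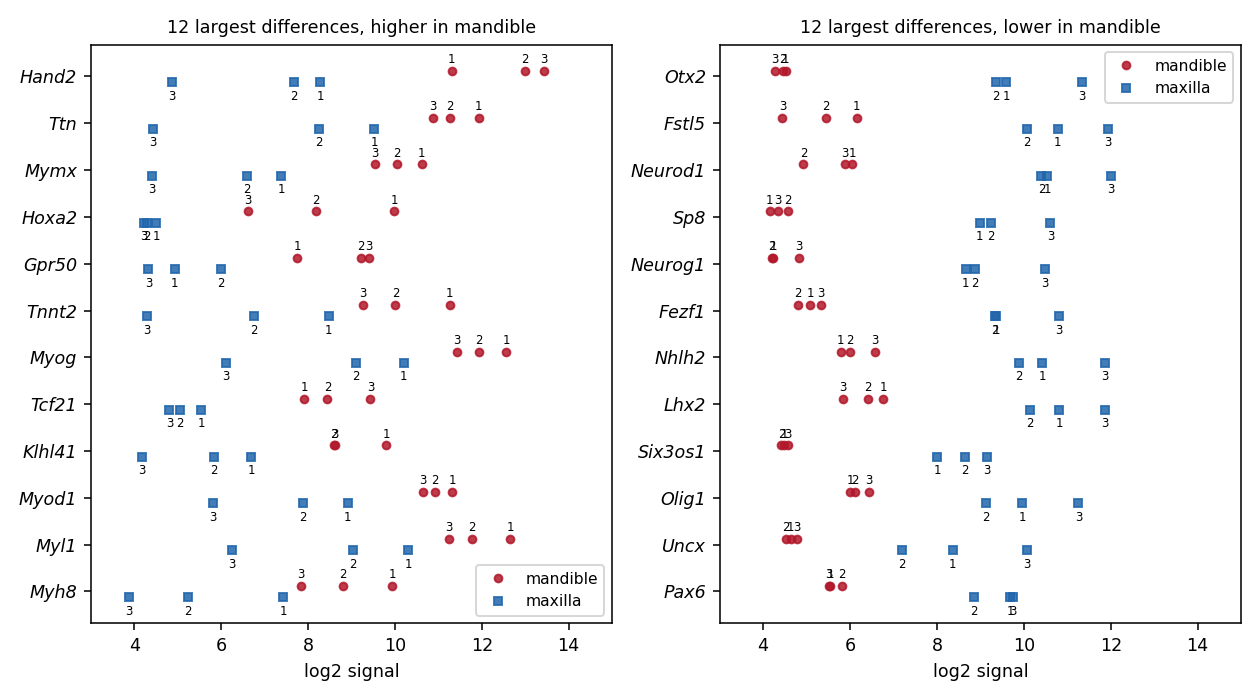
Log2 signal of the 12 largest called differences each way among genes without overlap, with 1 point per knockout array, labelled by its number (red circles mandible, blue squares maxilla). The absence of overlap was part of the choice of these genes. For the muscle genes maxilla array 3 is the lowest, and for the 12 genes higher in the maxilla it is the highest maxilla value.

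Fstl5, a secreted follistatin-like protein, and Olig1 and Uncx, transcription factors, completed the largest differences in favour of the maxilla with Six3os1, a noncoding transcript at Six3. Fstl5 read 6.15, 5.43 and 4.44 against 10.78, 10.07 and 11.94, at least 30.8-fold lower in the mandible (adjusted p = 4.92e-05). Olig1 read 5.999, 6.12 and 6.43 against 9.96, 9.13 and 11.26 (-3.93 ± 0.73, adjusted p = 0.00455). Uncx and Six3os1 were at least 6.27-fold and 6.53-fold lower. Olig1 and Uncx lost the call without both arrays that stand apart (adjusted p = 0.0915 and 0.0821). The smallest adjusted p of the comparison belonged to Dmrta1, named after its values were seen, at 4.23, 4.55 and 4.31 against 7.03, 7.21 and 8.04, at least 2.89-fold lower (adjusted p = 1.30e-05).

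Skeletal muscle genes of the contractile apparatus and of muscle commitment were higher in the mandible, and the size and the calls depended on single arrays. Of 34 muscle genes, 22 were called higher and 1, Pax7, was called lower, with a median of 2.93. The mean level of the list was 9.56 to 10.58 in the mandible and 6.35 to 8.69 in the maxilla. In controls it was 6.56 to 9.32 in the distal mandible and 9.86 to 10.19 in the proximal mandible. All 3 knockout distal mandible arrays thus lay above the control distal range. Over all genes 3.58 % were called higher. With the array number as a block 31 were called higher (all genes 5.99 %). Without distal mandible 1 the count was 3 (all genes 0.894 %), without distal maxilla 3 it was 3 (all genes 0.551 %), and without both it was 1 (Tcf21), where 0.302 % of all genes were called higher, with a median of 1.67. In each jaw array 1 had the highest list mean and array 3 the lowest.

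Among the commitment factors, Myod1 read 11.32, 10.92 and 10.65 in the mandible and 8.91, 7.89 and 5.81 in the maxilla (3.43 ± 0.79, adjusted p = 0.0143). Myog, the bHLH factor of muscle differentiation, read 12.56, 11.92 and 11.43 against 10.20, 9.10 and 6.10 (3.50 ± 0.98, adjusted p = 0.0355). The mandible arrays lay above the maxilla arrays in both, yet the maxilla arrays alone spanned about as wide a range as the difference. Mymx, a micropeptide that lets myoblasts fuse, read 10.62, 10.04 and 9.53 against 7.39, 6.59 and 4.40 (3.93 ± 0.90, adjusted p = 0.0139). Ttn, the giant spring protein of the sarcomere, read 11.92, 11.26 and 10.88 against 9.53, 8.25 and 4.43 (3.95 ± 1.18, adjusted p = 0.0477). Without distal maxilla 3 the difference of Ttn was 2.47 (adjusted p = 0.226). Tnnt2, Myl1, Myh8 and Klhl41 serve contraction and sarcomere assembly. Tnnt2 and Myl1 differed by 3.67 and 3.36, and Myh8 and Klhl41, whose maxilla means were below the floor, were at least 5.59-fold and 7.37-fold higher. All 4 were called with all arrays and none without distal mandible 1 or without distal maxilla 3, and the same held for Myod1, Myog and Mymx. Myh3, the embryonic myosin, read 13.06, 12.21 and 11.59 against 10.73, 9.31 and 5.78 and missed the threshold (adjusted p = 0.0624, with the block 0.0317).

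Promoters of 2 muscle genes called higher are shown, since muscle bHLH factors bind E-boxes, above all CAGCTG. They are Myog at chr1:134289754-134290053 on the plus strand and Chrna1, a subunit of the muscle acetylcholine receptor, at chr2:73580289-73580588 on the minus strand, chosen after its values were seen (RefSeq, GRCm38.p6, CANNTG in capitals).
Myog: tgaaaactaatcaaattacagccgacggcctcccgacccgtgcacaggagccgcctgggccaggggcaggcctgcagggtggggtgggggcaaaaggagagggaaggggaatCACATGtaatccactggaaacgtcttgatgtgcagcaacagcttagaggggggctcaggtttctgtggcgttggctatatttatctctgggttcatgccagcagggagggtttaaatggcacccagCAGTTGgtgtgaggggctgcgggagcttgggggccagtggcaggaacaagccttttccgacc
Chrna1: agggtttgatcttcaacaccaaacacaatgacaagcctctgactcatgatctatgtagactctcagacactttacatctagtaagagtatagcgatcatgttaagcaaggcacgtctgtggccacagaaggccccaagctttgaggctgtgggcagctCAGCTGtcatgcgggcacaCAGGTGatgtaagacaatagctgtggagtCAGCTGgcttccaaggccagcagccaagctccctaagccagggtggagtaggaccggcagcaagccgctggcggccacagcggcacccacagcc
The Chrna1 window held 3 boxes, of which 2 were CAGCTG, and the Myog window held 2 boxes, of which 0 were of that kind. Of the neuronal windows shown earlier, that of Nhlh2 held 1 box of that kind and that of Neurod1 held 0. This kind of box stood in 16.3 % of all promoter windows, so its presence did not separate the muscle from the neuronal genes shown. Chrna1 read 10.72, 9.60 and 9.22 in the mandible and 7.92, 7.39 and 6.91 in the maxilla (2.44 ± 0.51, adjusted p = 0.00866).

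Tcf21, a bHLH gene of head muscle precursors and mesenchyme, was the exception in the muscle list. Another probe set of Tcf21 differed by only 0.45 (adjusted p = 0.00851), so the size depends on the probe set. The one used here read 7.91, 8.45 and 9.43 in the mandible and 5.54, 5.06 and 4.81 in the maxilla (adjusted p = 0.000355), at least 6.68-fold higher against the floor. The groups were far apart, and the mandible values had the reverse order of the mandible list means. It stayed called without both arrays that stand apart (adjusted p = 0.00403). In controls the means of both jaws were below the floor, and the difference between the genotypes had an adjusted p of 1. Of the smooth muscle and pericyte list, 2 of 11 were called higher, Acta2 (2.82 ± 0.82) and Des (2.26 ± 0.53), actin and filament proteins that developing skeletal muscle also makes. Over all genes 3.58 % were called higher, and both calls were lost without distal mandible 1 and without distal maxilla 3.

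**Figure D3:**
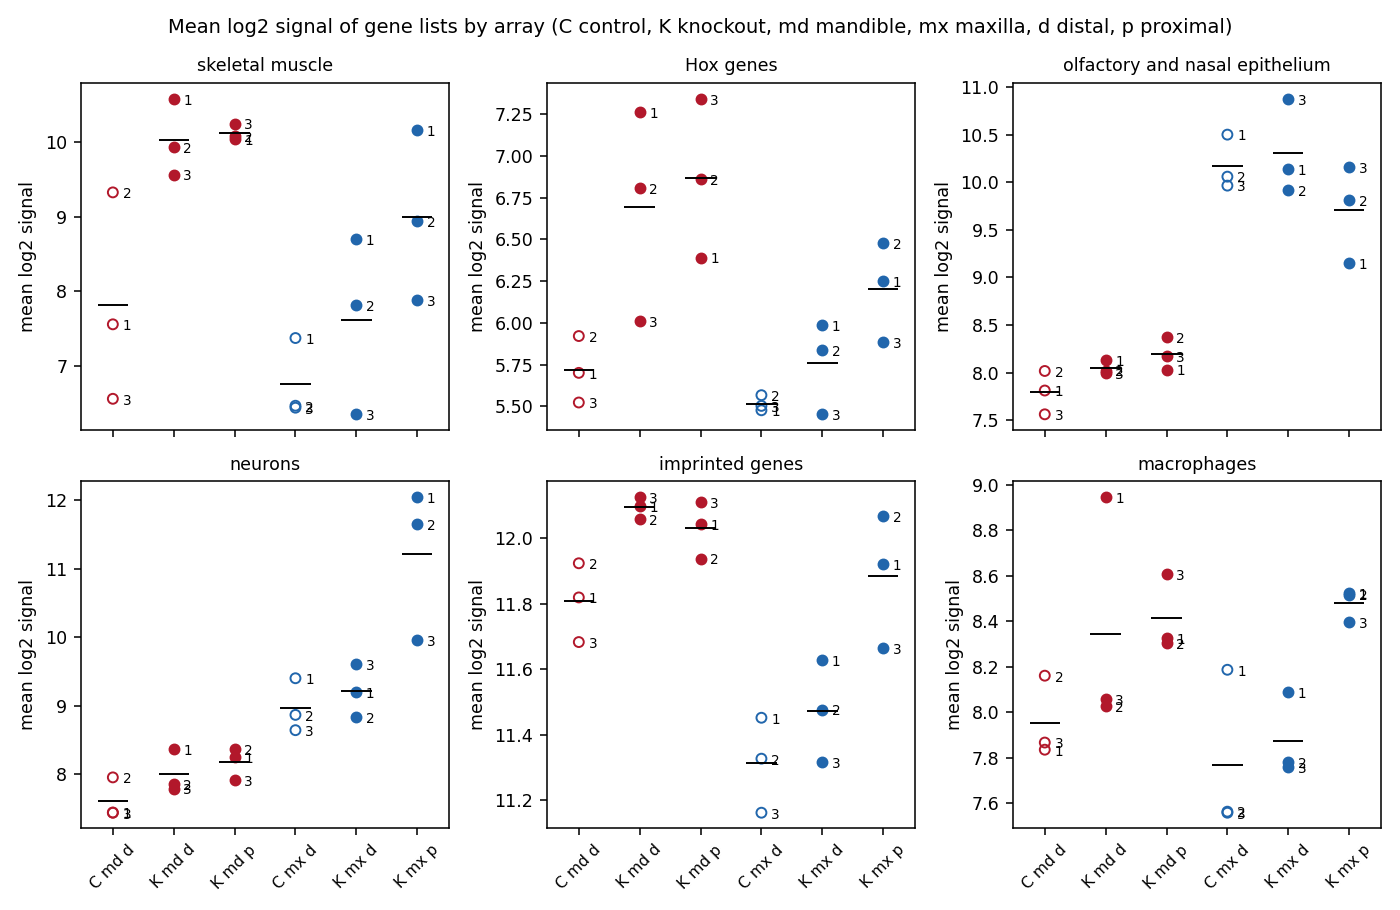
Mean log2 signal of 6 gene lists in each array of 6 groups (C control with open circles, K knockout with filled circles, md mandible in red, mx maxilla in blue, d distal, p proximal). Numbers are array numbers and black lines are group means. Muscle genes read 9.56 to 10.58 in the knockout distal mandible and 6.35 to 8.69 in the knockout distal maxilla, and olfactory genes 7.995 to 8.13 and 9.91 to 10.88.

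Hox genes, which mark arches behind the first and are normally silent in jaw crest, rested on single arrays as well. Hoxa2 read 9.99, 8.19 and 6.62 in the mandible and 4.50, 4.28 and 4.23 in the maxilla (adjusted p = 0.035), at least 5.31-fold higher. Array 1 was the highest and array 3 the lowest of the mandible, and all maxilla arrays lay below the floor. In controls Hoxa2 read 4.27 to 5.98 in the distal mandible and 8.37 to 10.51 in the proximal mandible. Hoxb2 read 8.73, 8.06 and 7.62 against 6.57, 6.22 and 5.85 (1.92 ± 0.53, adjusted p = 0.0329). These 2 of 10 Hox genes were called higher, against 3.58 % of all genes. Without distal mandible 1 the count was 0 (all genes 0.894 %), with an adjusted p of 0.164 for Hoxa2, and without distal maxilla 3 it was 0 (all genes 0.551 %). The list median was 0.74 and without that array 0.37. Hoxc4 did not overlap yet missed the threshold at 9.39, 7.93 and 6.59 against 6.11, 6.18 and 6.06 (adjusted p = 0.0625).

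Of 10 T-box genes, Tbx1 and Tbx5 were called higher, against 3.58 % of all genes, and 6 had a positive difference. Tbx5 lost its call without distal maxilla 3 and without both. Tbx1, a gene of pharyngeal mesoderm and epithelium, read 9.26, 9.51 and 9.97 against 8.75, 8.65 and 7.85 (1.16 ± 0.18, adjusted p = 0.00131), and stayed called without both arrays that stand apart (adjusted p = 0.00116). Of 11 genes of the SIX-EYA-DACH network of placodes and muscle precursors, 4 were called lower, against 4.30 % of all genes. These were Six3, Six2, Eya2 (-1.28 ± 0.20) and Eya1 (-0.92 ± 0.23), of which Eya1 lost its call without either array that stands apart. Of 14 Meis, Pbx, Irx and Nr2f genes, Irx5 (-0.57) and Nr2f6 (-0.33) were called lower, and both calls were lost without distal mandible 1 and without distal maxilla 3. Irx2 (1.41, adjusted p = 0.133) was not called. Barx2, a homeobox gene of oral tissue and muscle, was called higher (1.22 ± 0.30, adjusted p = 0.0195), and Osr1, of palate and tongue mesenchyme, read 12.12, 11.85 and 12.14 against 11.37, 10.44 and 9.26 (1.68 ± 0.42, adjusted p = 0.0227). Both lost the call without either array. Barx1, a gene of tooth-forming mesenchyme, overlapped between jaws at 12.78, 12.54 and 11.51 against 11.69, 11.80 and 9.97.

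Signalling genes differed one at a time. In the FGF pathway (24 genes) the ligands Fgf7 and Fgf18 and the receptor Fgfr4 were called higher in the mandible and the ligand Fgf15 lower. These are 12.5 % and 4.17 % of the list, against 3.58 % and 4.30 % of all genes. Fgf7 read 10.16, 8.96 and 8.09 against 7.83, 7.30 and 6.78 (1.77 ± 0.42, adjusted p = 0.0174), and Fgf15 read 6.07, 6.60 and 7.20 against 9.73, 7.91 and 8.09 (-1.95 ± 0.53, adjusted p = 0.0313). Fgfr4, which muscle precursors express, differed by 1.71 and Fgf18 by 1.13. Other probe sets of Fgfr4 differed by only 0.46 and 0.35. In the Wnt pathway (30 genes) the ligand Wnt11 (1.51 ± 0.40) and the inhibitor Dkk2 (0.84 ± 0.22) were called higher, 6.67 % of the list. In the BMP pathway (24 genes) only the target gene Id4 was called, at 10.50, 10.36 and 10.60 against 11.93, 11.66 and 12.30 (-1.48 ± 0.25, adjusted p = 0.00198), and it stayed called without both arrays that stand apart (adjusted p = 0.049). Msx1, another target, differed by -0.64 (adjusted p = 0.477). The 1 call of the BMP list is 4.17 % of it, near the 4.30 % of all genes called lower.

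In the TGF-beta pathway, 1 of 27 genes was called, the transducer Smad2, at 11.06, 10.80 and 10.85 against 10.50, 10.47 and 10.27 (0.49 ± 0.14, adjusted p = 0.0366). That is 3.7 % of the list, near the 3.58 % of all genes called higher. Another probe set of Smad2 differed by 0.10 and was not called (adjusted p = 0.549). The list median was -0.10. Inhbb, an activin subunit, differed by 1.30 (adjusted p = 0.0973) and Inhba by -0.52 (adjusted p = 0.356). The endothelin ligand Edn3 (0.91 ± 0.21) and the converting enzyme Ece2 (0.32 ± 0.095) were called higher and the effector Plcb4 lower (-0.51 ± 0.13). Of the other probe sets of Plcb4, 2 differed in sign (0.16 and 0.073) and 1 did not (-0.17). The retinoid receptor Rxrg was called higher (1.37 ± 0.37) and the Notch target Hey1 lower (-0.89 ± 0.23). Of the Hedgehog pathway 0 of 15 genes were called in either direction, and Gli1, its target, differed by -0.39 (adjusted p = 0.428). Among the axon guidance genes the receptor Robo2 (-1.65 ± 0.38) and the semaphorin Sema3e (-1.27 ± 0.35) were called lower, and another probe set of Sema3e differed in sign. Of the signalling genes named as called, Id4 and Sema3e held without both arrays that stand apart, and Smad2, Edn3, Ece2, Plcb4, Rxrg, Hey1, Robo2, Fgf7, Fgfr4, Fgf18, Fgf15, Wnt11 and Dkk2 did not.

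Skeletal and connective tissue genes showed few differences. Sox9 and Sox5, factors of cartilage precursors, were called lower in the mandible. Sox9 read 10.07, 10.09 and 9.51 against 10.66, 10.73 and 11.15 (-0.96 ± 0.22, adjusted p = 0.014), and Sox5 differed by -1.03 ± 0.21 (adjusted p = 0.00816), while of its other probe sets 3 were called lower as well and 1 differed in sign (0.081). The cartilage matrix gene Col9a2 was not called (-0.59, adjusted p = 0.192), and the list median was -0.18 over 17 genes. None of 6 bone genes was called, and Sp7, the osteoblast factor, differed by 0.50 (adjusted p = 0.569). Thbs4, a matrix protein of tendon and muscle, read 10.17, 9.04 and 9.09 against 6.999, 6.52 and 6.32 (2.82 ± 0.56, adjusted p = 0.00636), without overlap. Without both arrays that stand apart Sox9 and Thbs4 lost the call and Sox5 kept it, and without distal maxilla 3 alone Sox9 and Sox5 lost it. In the extracellular matrix list of 30 genes, Mfap5 was called higher (at least 2.63-fold) and P4ha3 (-1.23) and Mfap4 (-0.48) lower, and without both arrays that stand apart none of the list was called. With all arrays these are 3.33 % and 6.67 % of the list, near the 3.58 % and 4.30 % of all genes. Another probe set of Mfap5 differed by 0.60. Decorin (Dcn) read 13.14, 12.25 and 11.48 against 11.98, 10.49 and 10.01 and was not called (adjusted p = 0.0807, with the block 0.0165).

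Among markers of blood and vessels, none of 16 endothelial and none of 11 erythroid genes was called, with medians of 0.17 and 0.048. Pecam1, an endothelial adhesion protein, differed by 0.78 (adjusted p = 0.0736). Of 16 macrophage genes Cx3cr1, a chemokine receptor, was called higher (0.68 ± 0.20, adjusted p = 0.04), a call lost without distal mandible 1 and without distal maxilla 3. This 1 call is 6.25 % of the macrophage list, against 3.58 % of all genes called higher. All 16 had a positive difference. The macrophage list was highest in distal mandible 1, at 8.94 against 8.03 and 8.06 in the other mandible arrays, and without that array the median went from 0.42 to 0.14. Of the glial list Dhh was called higher (0.48) and Mbp lower (-0.93), a call that Dhh lost and Mbp kept without both arrays that stand apart. Each is 8.33 % of the 12 glial genes tested, against 3.58 % called higher and 4.30 % called lower over all genes. Of the other probe sets of Mbp, 3 gave positive differences up to 0.20 and 3 gave negative ones down to -0.59. The part of these cells in the jaw differences was not tested.

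Of 19 imprinted genes, expressed from 1 parental allele and many of them regulators of embryonic growth, 11 (57.9 %) were called higher in the mandible and 0 lower, with a median of 0.56. Over all genes 3.58 % were called higher and 4.30 % lower. The list mean was 12.06 to 12.13 in the mandible and 11.32 to 11.63 in the maxilla, without overlap. Dlk1, a Notch-related inhibitor of differentiation, read 13.88, 13.82 and 13.73 against 12.78, 11.91 and 11.02 (1.91 ± 0.37, adjusted p = 0.00606). Magel2 read 9.86, 9.51 and 9.84 against 8.05, 8.13 and 7.92 (1.70 ± 0.34, adjusted p = 0.00636). The maxilla arrays were spread for Dlk1 and close together for Magel2.

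Mirg, a noncoding RNA of the Dlk1 locus, differed by 1.24 ± 0.31, and Meg3 of the same locus by 0.49 (adjusted p = 0.0741, with the block 0.0282). The other probe sets of Meg3 differed by 0.30 to 1.87, and the largest of these was called with no block (adjusted p = 0.00259). Cdkn1c, an inhibitor of the cell cycle, read 14.12, 14.02 and 14.15 against 13.52, 13.45 and 13.30 (0.67 ± 0.12, adjusted p = 0.00399). Igf2r, which clears the growth factor Igf2, differed by 0.69 ± 0.16 and Zdbf2 by 0.78 ± 0.22, and Peg10 (0.89, adjusted p = 0.102) was not called. Peg3, a zinc finger gene of the list named after its values were seen, had a small and tight difference of 0.57 ± 0.065 (adjusted p = 9.16e-05), at 13.79, 13.85 and 13.89 against 13.37, 13.19 and 13.27. Zim1 and Usp29, imprinted neighbours of Peg3 named in the same way, were called higher too, Zim1 at least 3.38-fold (adjusted p = 9.16e-05) and Usp29 by 1.15 ± 0.16 (adjusted p = 0.000423). Without both arrays that stand apart 1 gene of the list, Peg3, was called, and the median was 0.43. With 1 array left out, 5 (without distal mandible 1) and 5 (without distal maxilla 3) were called. Over all genes 0.302 % were called higher without both, 0.894 % without distal mandible 1 and 0.551 % without distal maxilla 3. Among 24 cell cycle genes, Cdkn1c and Ccne1 (0.45) were called higher and Cdkn1b lower (-0.28), the last with another probe set of opposite sign (0.13). The calls are 8.33 % and 4.17 % of that list, against 3.58 % and 4.30 % of all genes. None of these 3 was called without both arrays that stand apart.

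**Figure D4:**
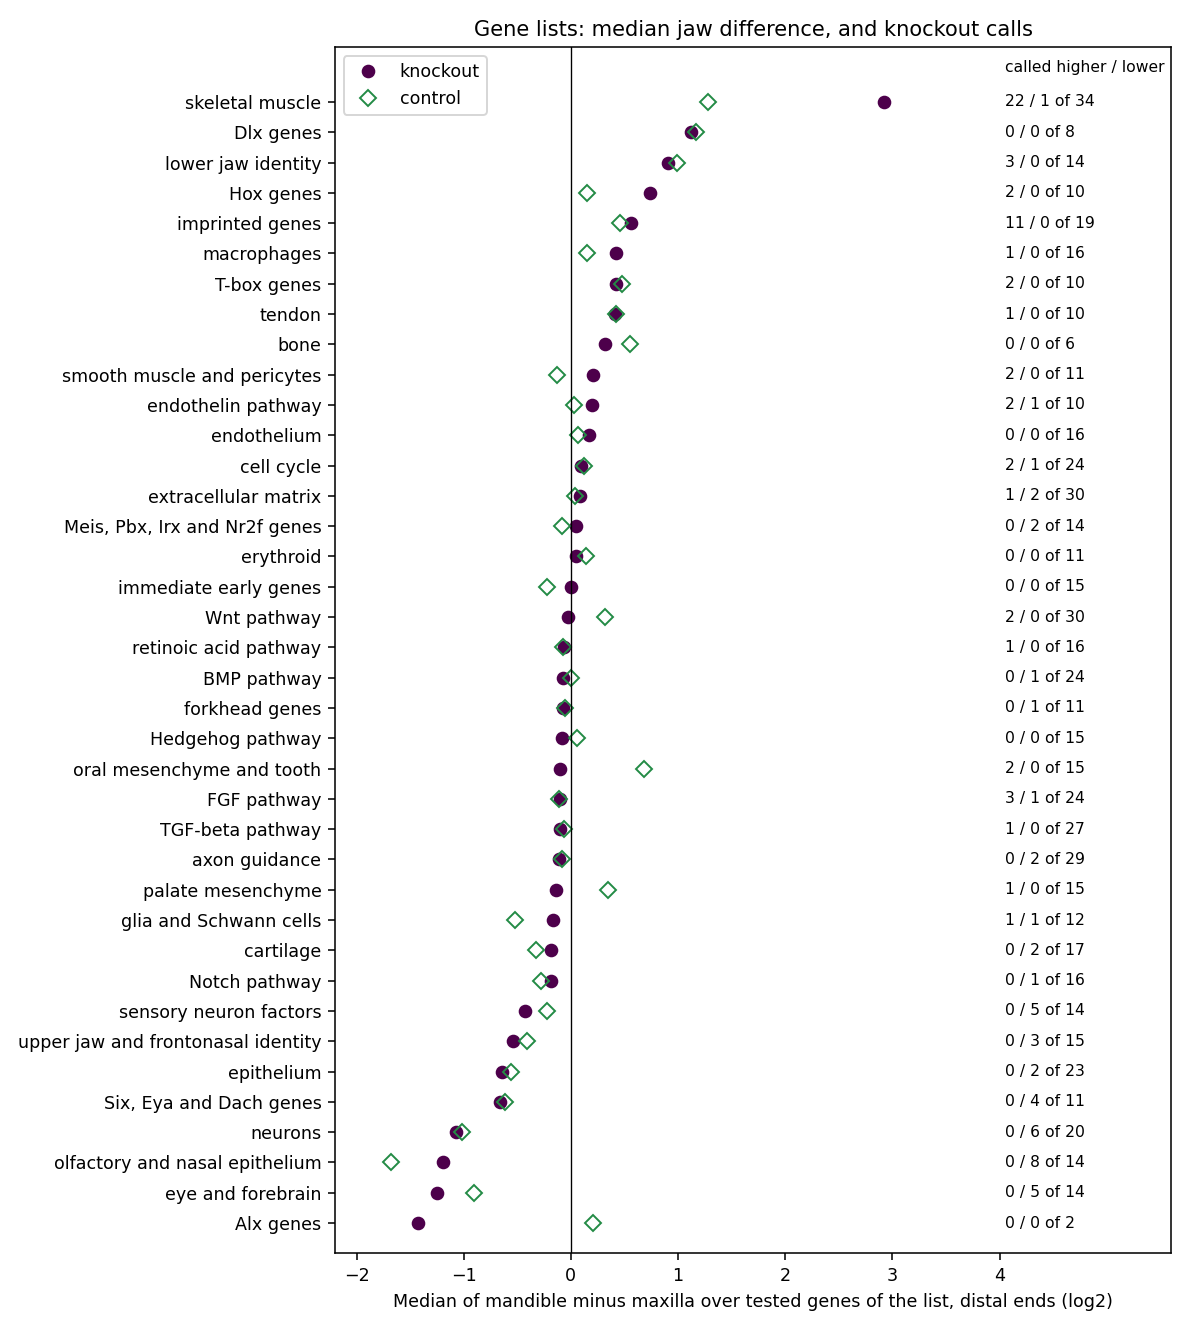
Median of mandible minus maxilla (log2) over the tested genes of each list, in knockouts (filled circles) and in controls (open diamonds), with the knockout calls higher and lower at the right. Skeletal muscle stands highest in knockouts at 2.93 with 1.28 in controls, and the olfactory list lies at -1.20 and -1.67. The Alx list holds 2 genes.

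Gpr50 and Ccnb3 were further single genes higher in the mandible. Gpr50, an orphan receptor related to melatonin receptors, read 7.76, 9.22 and 9.40 against 4.93, 6.001 and 4.33 (adjusted p = 0.0179), at least 7.4-fold higher, and lost its call without distal maxilla 3. Another probe set of Gpr50 differed by only 1.00 (adjusted p = 0.01), so the size depends on the probe set. Ccnb3, a cyclin known from meiosis, read 7.57, 8.08 and 7.63 against 4.94, 5.15 and 4.75, at least 3.74-fold higher (adjusted p = 0.000108). Its arrays were close together within each jaw, and it stayed called without both arrays that stand apart (adjusted p = 0.00394).

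The same jaw comparison in the 6 control arrays, which share no array with the knockouts, asked whether these differences depend on the genotype. In controls 2086 genes (14.0 %) were called. Of the 1173 knockout calls, 692 were also called in controls, all in the same direction, which is 59.0 % of the knockout calls and 33.2 % of the control calls. The direction was the same in controls for 1146 of the knockout calls (97.7 %), against 77.4 % of all genes tested. The test of the difference between the genotypes called 0 genes in limma, with 653 at an unadjusted p under 0.05 and a smallest adjusted p of 0.763, so no jaw difference was shown to differ between knockouts and controls.

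**Figure D5:**
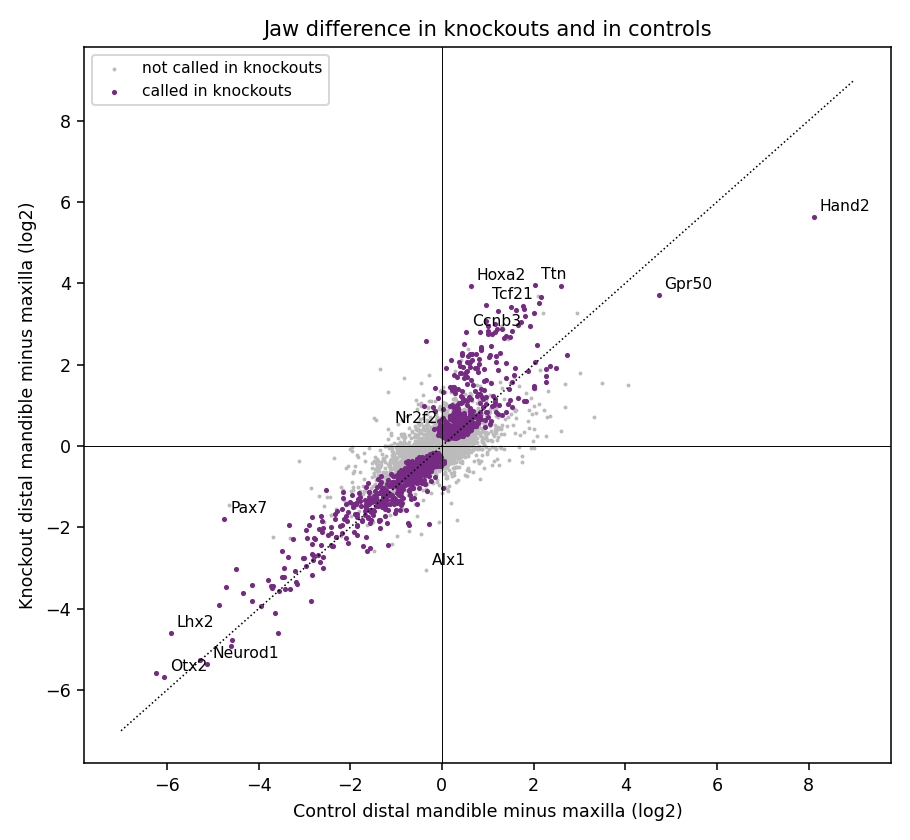
Each point is a gene: the control distal mandible minus maxilla difference (log2) on the x axis and the same in knockouts on the y axis, with genes called in knockouts in purple and a dotted line of equal differences. Fitted differences are drawn also where a group mean is below the floor (of the labelled genes, all but Pax7, Alx1 and Nr2f2), and such a point has at most a bound on that axis.

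Otx2, Neurod1 and Sp8 had mandible means below the floor in both genotypes, so no difference is set against another for them. Their maxilla means in knockouts and controls were 10.09 ± 1.08 and 10.27 ± 0.16 for Otx2, 10.98 ± 0.89 and 10.98 ± 0.67 for Neurod1, and 9.61 ± 0.88 and 9.82 ± 0.46 for Sp8 (SD, n = 3). Hand2 had a maxilla mean of 6.94 ± 1.82 in knockouts and 5.44 ± 0.37 in controls, the latter below the floor, and a mandible mean of 12.58 ± 1.12 and 13.55 ± 0.036. Pax7 differed by -1.79 and -4.74 (adjusted p 1). The muscle list had a median of 2.93 in knockouts and 1.28 in controls, where 0 genes were called higher and 1 lower, against 6.62 % and 7.40 % of all genes. The control mandible arrays spread widely in muscle level, from 6.56 to 9.32. Imprinted genes were called higher in controls for 7 of 19, with a median of 0.46.

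The 5 genes with the smallest unadjusted p for the difference between genotypes were Grin3a, Ccnb3, Rsph3a, Nr2f2 and Itga4. Ccnb3 had a mandible mean of 7.76 ± 0.28 in knockouts and 5.68 ± 0.60 in controls, and the control mean and both maxilla means were below the floor. Grin3a, a glutamate receptor subunit with another probe set of opposite sign, differed between the jaws by -0.082 in knockouts and 1.18 in controls, and Rsph3a, a cilium protein, by 0.035 and -0.63. Nr2f2, a nuclear receptor of upper jaw mesenchyme, differed by 0.41 and -1.17, and Itga4, an integrin, by 0.28 and -1.10. Each had an adjusted p of 0.763 or more.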

How the data were processed

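RNA from the 2 ends of both jaws was measured on 24 arrays of 45101 probe sets, in 8 groups of 3. Total RNA was extracted with RNeasy kits and labelled as biotin cRNA, per the labels' protocols. The deposited values are log2 signal that the authors had made with RMA (background correction, quantile normalization and probe summary), per the submitters' processing notes, and no source used here gives its version. RMA shrinks differences near the background, and the values were used as deposited.

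Probe sets were named from the platform annotation: 34945 have 1 symbol, 932 have several and were left unnamed, and 64 are controls. Of several probe sets of a gene the one with the highest mean signal stood for it, which left 18193 genes. Genes above the array's 30th percentile in at least 3 arrays were tested (14879). limma 3.58.1 in R 4.3.3 fitted all 8 groups together (16 residual degrees of freedom) without a block, and adjusted p-values are Benjamini-Hochberg values over all genes tested. The code was tested on simulated data. Figures and promoter searches used Python 3.11.15.

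Replicate numbers come from the titles. Deviations from the group means of same-numbered knockout distal arrays correlated at 0.42, 0.28 and 0.30 for numbers 1, 2 and 3, all over 0.1, so the numbers were taken to pair the knockout arrays. Knockout distal arrays of unlike number averaged -0.16. The control pairs correlated at 0.09, 0.02 and 0.34, and control arrays of unlike number averaged -0.08. Deviations cancel out within each group, so the averages for unlike numbers largely follow from the same-numbered correlations. They are no separate support for the pairing. The main fit does not use the pairing. The fits with a block do, in both genotypes, although 2 of the control pairs were under 0.1.

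Where a group mean of a called gene was below the mean 30th percentile (5.89), a bound is given as at least N-fold, with each array of the dim group raised to its own 30th percentile. The bound holds for the probe set that stood for the gene. Named genes are the 12 largest called differences each way without overlap, up to 6 called and 4 uncalled members of each of 39 gene lists by size, the genotype and sex checks, and the genes with the smallest p for the difference between genotypes. The comparison and its lists were chosen with earlier results of these data known. Alternatives covered the block, array weights, normalization, filter, probe set rule, arrays in the fit, fold threshold and arrays left out. Leaving out distal mandible 1 with distal maxilla 3, and leaving out the knockout mandible arrays numbered 1 of both ends, were added after seeing the data. Promoters are RefSeq windows on GRCm38.p6.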

Additional observations from a re-analysis of the deposited data

How the results depend on the processing

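The knockout jaw comparison called 1173 genes (533 higher, 640 lower in the mandible), and the count depended on the fit more than on the normalization. It was 2507 with array weights (1159 and 1348), 1856 with the replicate number as a fixed block (891 and 965), 1903 with it as a random block (943 and 960), 270 in a fit of the 2 groups compared (86 and 184), 251 in a fit of the 12 knockout arrays (114 and 137) and 21 against a fold threshold of 1 on the log2 scale (5 and 16). Leaving out each array in turn gave 279 to 957 calls (82 to 490 higher and 197 to 523 lower). The lowest came without distal maxilla 3, and the count without distal mandible 1 was 463 (133 and 330). Without both, an alternative chosen after seeing the data, it was 173 (45 and 128), and without the knockout mandible arrays numbered 1 of both ends 483 (141 and 342). The other settings stayed within 1.5 times, and 3 of them moved the split: centred array medians gave 555 higher and 506 lower, cyclic loess 451 and 679, and the mean of all probe sets 609 and 488. In controls, 2086 calls became 3288 with array weights, 2831 with the block and 1105 to 1650 with 1 array left out. The test of the difference between genotypes called 0 genes in limma in every setting where it was run, with 379 to 1504 at an unadjusted p under 0.05. It was not run with the fold threshold or in the fit of the 12 knockout arrays. None of 231 named genes changed sign in any setting while called, and 57 of them crossed the threshold the weaker way without both arrays that stand apart. With the fixed block Pax7 lost its call, and 25 named genes gained one. The cause of these changes was not tested. The number of arrays, 3 a group, limits the precision.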
